A study of Apis mellifera with 3 samples.

Results

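The retired bee library was compared with the winter bee library over 11955 transcript sequences that stood at 10 RPKM or more in at least 1 of the 2. RPKM are reads per kilobase of sequence, scaled to the size of the library. The whole series lists 21441 sequences, of which 21013 had a read in the winter or the retired library. Of the 11955, 7505 resemble a known protein, 5731 have a match with a description, 5371 have an orthology entry and 1620 a biological process term. RNA was taken from worker honeybees of the carnica subspecies (Apis mellifera carnica Pollmann) bred as full sisters, from queens inseminated with the sperm of 1 drone. Each library is a single pool of 30 bees. The labels give day 3 after emergence to the winter bees, day 6 to the spring bees and day 9 to the retired bees. They do not say how a bee was judged retired. Whether these days are the ages at which the bees were collected was not settled from the sources used here. State and labelled day differ between the pools together and cannot be told apart. The tissue is labelled hypopharyngeal gland, while the series' own design text speaks of pooled heads. With 1 pool a group, every ratio below compares 2 libraries and not 2 conditions, and no p-value was computed. Values of the spring library are given beside the others.

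The hypopharyngeal glands are paired glands in the head of the worker bee. In nurses they secrete the proteins of royal jelly through a large endoplasmic reticulum, and in foragers they turn to enzymes that process nectar into honey. Winter bees live long, carry large stores of the egg yolk protein vitellogenin in the fat body, and do not feed brood.

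Uniquely mapped reads numbered 3.85 M in the winter and 3.18 M in the retired library. A single-library count of 3 reads on a sequence of 1 kb corresponded to 0.780 RPKM in the winter and 0.944 RPKM in the retired library. The 10 most abundant sequences took 14.3% of the winter and 25.2% of the retired reads. Gland products were abundant in all libraries, but genes of other head tissues were read too. Of 53 sequences matched as neuron markers, 31 stood at 10 RPKM or more and together took 0.445% of winter, 0.359% of spring and 0.374% of retired reads. Muscle markers (31 of 68) took 0.261%, 0.185% and 0.274%, and photoreceptor markers (11 of 30) 0.0493%, 0.0402% and 0.0752%. In a pool of whole tissue, fewer cells of a type and less RNA per cell cannot be told apart.

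Of the 11955 sequences, 178 (1.49%) were higher by 2-fold or more in the retired library and 797 (6.67%) lower by as much. At least 4-fold differences numbered 48 higher and 58 lower, and a further 334 and 1899 lay between 1.5-fold and 2-fold. The nearest ratios to the 2-fold limit were 2.003 inside and 1.998 outside on the higher side. By counting error alone, the 95% interval of the read ratio lay above 1 for 5.65% of sequences and below 1 for 33.8%. The median log2 ratio over all sequences was -0.27, so a typical sequence was somewhat lower in the retired library. A rescaling to a median ratio of 1 multiplied every ratio by 1.22 and left the median log2 ratio of the 11955 at 0.011. With it, 365 sequences were at least 2-fold higher and 366 lower. Rescaled without the royal jelly proteins and most abundant sequences, the counts were 311 and 430. Most of the lower sequences resemble no known protein, with 515 of 797 (64.6%) against 37.2% of all 11955. On the higher side they were 39 of 178 (21.9%). Of the 797 lower sequences, 455 were among the 2989 with the lowest mean RPKM, as were 85 of the 178 higher ones. The filter itself favours this, since a sequence just past 10 RPKM in 1 library and 2-fold lower in the other has a low mean.

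**Figure D1:**
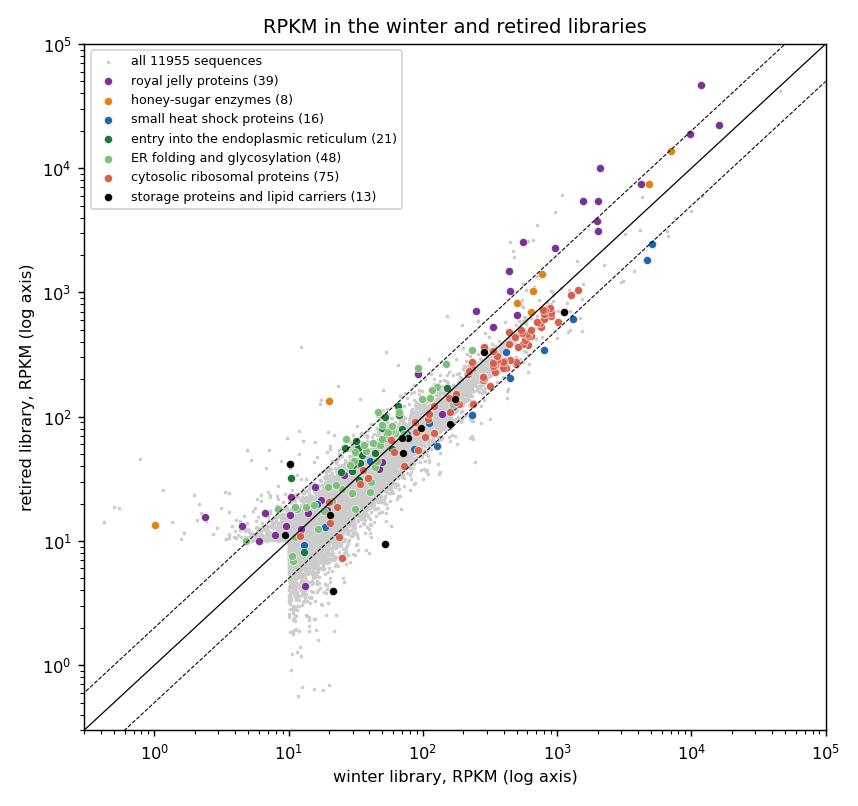
RPKM of 11955 sequences in the winter library (horizontal, log axis) and the retired library (vertical, log axis), with 7 gene lists coloured, the solid line at equal values and the dashed lines at 2-fold. Royal jelly proteins and honey-sugar enzymes lie mostly above the solid line, small heat shock proteins below it, and a library without a read is drawn at 1 read.

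**Figure D2:**
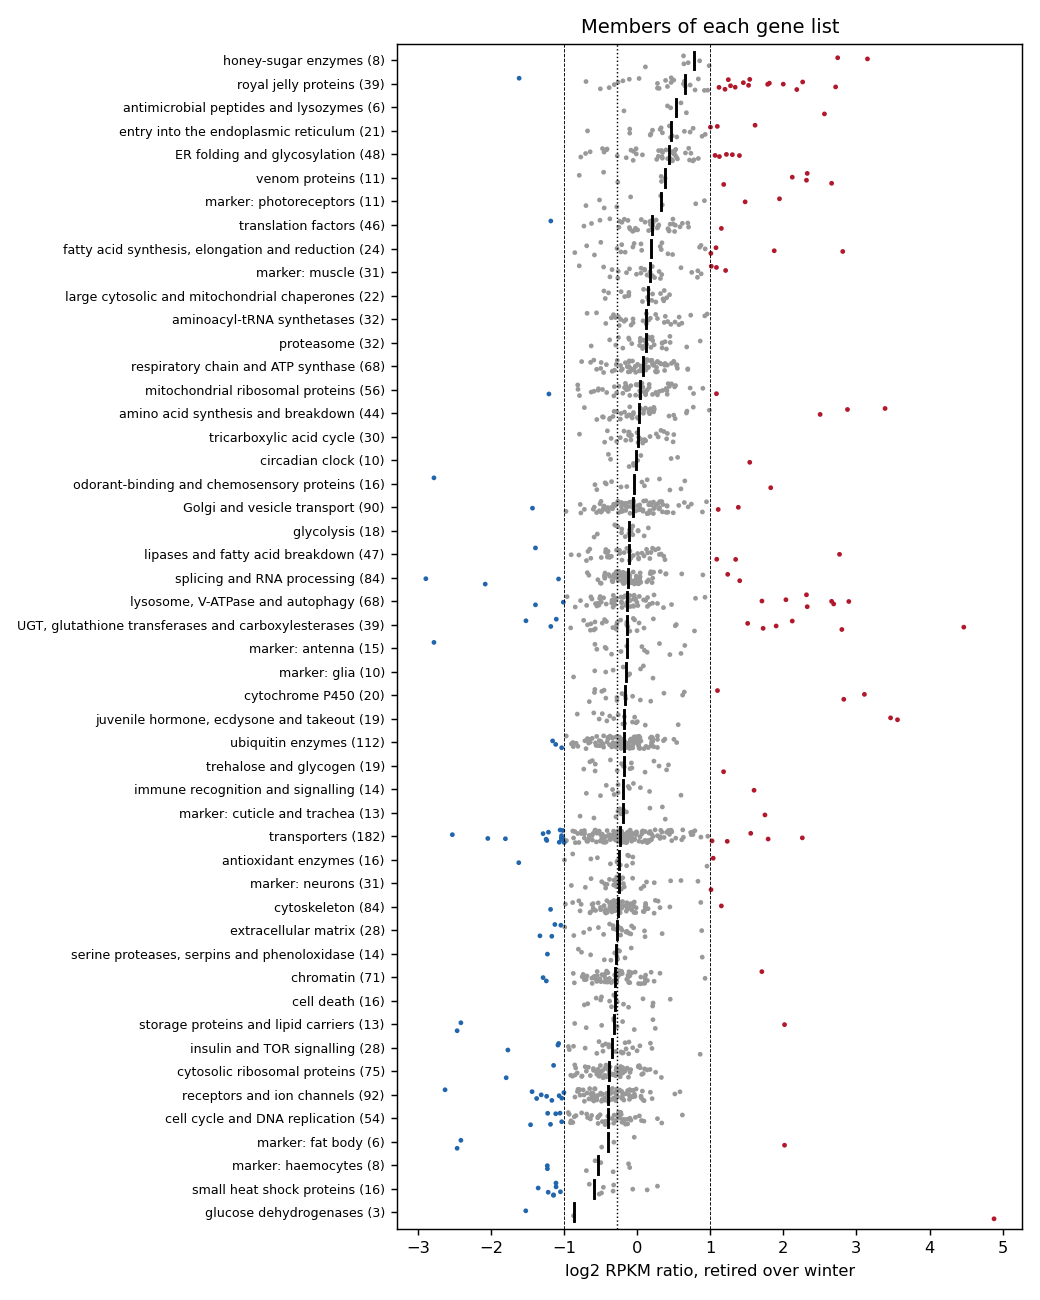
Log2 RPKM ratio, retired over winter, of each member (points) of the 50 gene lists, ordered by their median (black bars), with 2-fold differences in red and blue at the dashed lines and the median of all 11955 sequences dotted. Lists for secreted proteins and the endoplasmic reticulum lie near the top and small heat shock proteins, at a median of -0.59, near the bottom.

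Among described sequences with at least 50 reads in both libraries together, those that stood highest in the retired library were mostly enzymes. The top ratio belonged to a glucose dehydrogenase (TC14055, LOC551044), a flavoenzyme of the family that also holds glucose oxidase. It stood at 12.3 RPKM in winter, 507 in spring and 363 in retired bees, 29.5-fold higher in retired than in winter (95% counting interval 24.4 to 36.0). The other glucose dehydrogenase sequences went the other way. TC14254 stood at 16.2 RPKM in winter and 5.63 in retired, 2.88-fold lower (2.04 to 4.14), and TC17768 was 1.83-fold lower (1.28 to 2.65).

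The next highest ratios among these described sequences belonged to a glucosyltransferase, a takeout protein and an aminotransferase, all of which were read weakly in winter. An ecdysteroid UDP-glucosyltransferase-like sequence (TC16552) had 7 winter, 25 spring and 128 retired reads, a ratio of 22.1 (10.4 to 56.2). Another sequence of that name (TC12582) was more abundant, at 45.8, 59.8 and 53.4 RPKM, a ratio of 1.17 (1.03 to 1.32). A takeout-like sequence (TC13883, LOC727028), of a family of secreted carriers linked to feeding and the clock in Drosophila, stood at 4.86, 85.1 and 53.8 RPKM. Its ratio was 11.1 (7.17 to 17.8), and a second sequence with the same match (TC16421) had 4, 64 and 39 reads. A kynurenine/alpha-aminoadipate aminotransferase sequence (NP9552306), of an enzyme of tryptophan and lysine breakdown, had 6, 58 and 52 reads, a ratio of 10.5 (4.51 to 29.9). Another sequence of that name (TC17889) stood at 12.8, 17.7 and 12.3 RPKM, a ratio of 0.964 (0.631 to 1.47). TC16552, TC13883, TC16421 and NP9552306 were also higher in the spring than in the winter library. Of these, only the glucosyltransferase TC16552 stood higher in retired than in spring by more than 2-fold.

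**Figure D3:**
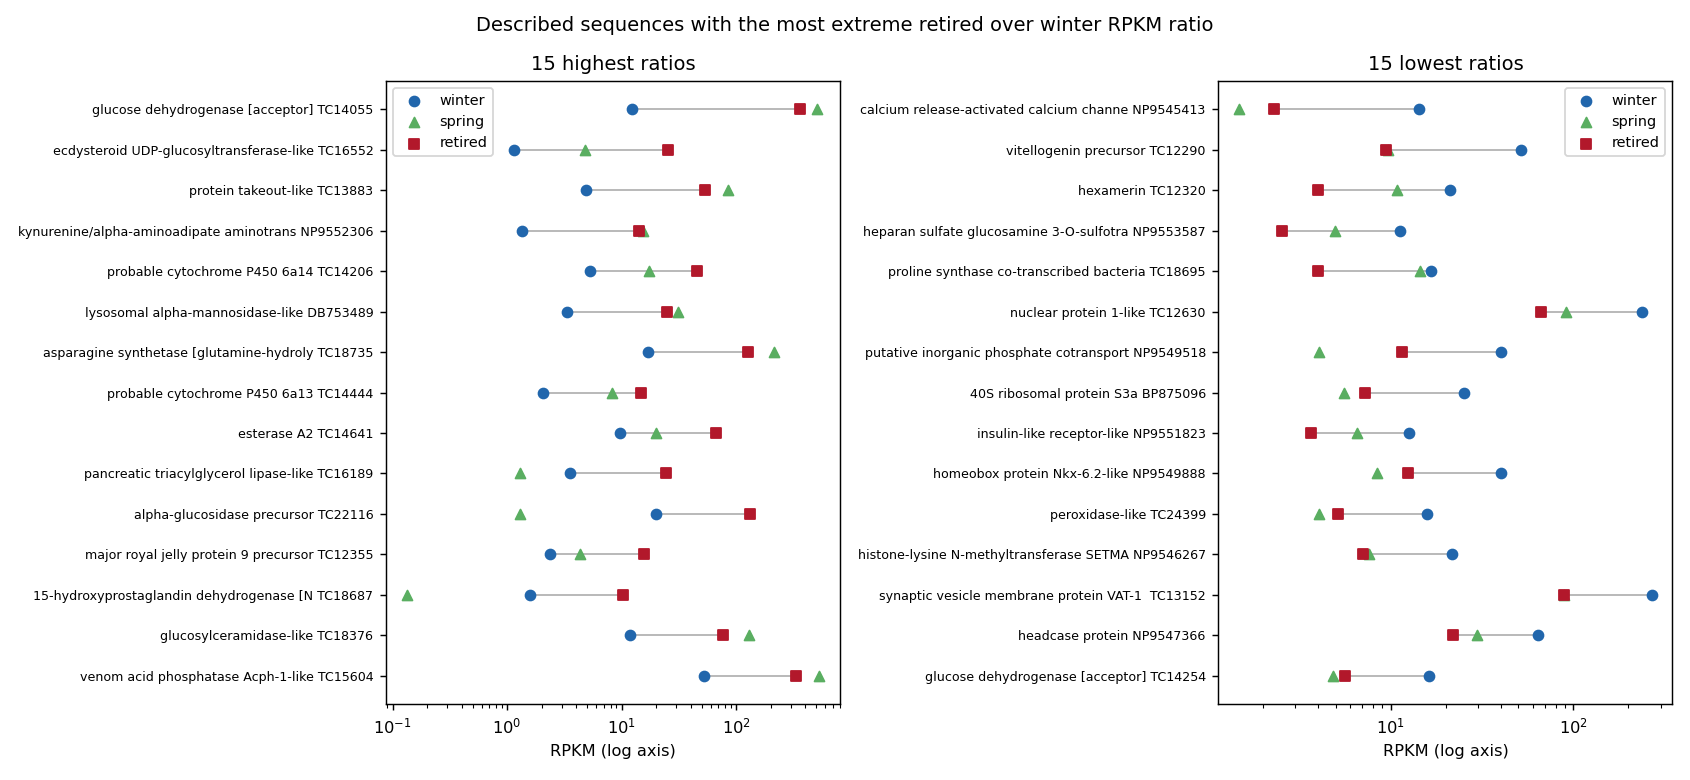
RPKM (log axis) in the winter, spring and retired libraries for the 15 described sequences with the highest and the 15 with the lowest retired over winter ratio among those with at least 50 reads in both libraries together. Grey lines join winter and retired, and on the left the spring value lies below both others for the pancreatic lipase-like, Hbg3 TC22116 and 15-hydroxyprostaglandin dehydrogenase-like sequences.

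Most sequences of the machinery that brings new proteins into the endoplasmic reticulum stood higher in the retired library. Of its 21 sequences, the interval lay above 1 for 14, included 1 for 7 and lay below 1 for 0. At least 2-fold higher were 3, and 0 were lower by as much. Above the median of all sequences, itself below a ratio of 1, lay 20, and the list's median log2 ratio was 0.46, or 0.73 above the median of all sequences. Translocon-associated protein subunit alpha (TC13695), which helps polypeptides enter the channel, stood at 10.5 RPKM in winter, 88.7 in spring and 32.0 in retired. Its ratio was 3.06 (2.26 to 4.18). The subunits of the Sec61 channel itself followed, with Sec61 beta (TC12693) at 26.3, 96.1 and 56.3 RPKM and Sec61 alpha (TC12619) at 52.6, 207 and 100.4. Their ratios were 2.14 (1.67 to 2.75) and 1.91 (1.67 to 2.18). All 3 stood above winter in retired and higher still in spring.

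Folding and glycosylation enzymes of the endoplasmic reticulum gave 5 of 48 sequences at least 2-fold higher and 0 lower, with a median of 0.43. Above the median of all sequences lay 41 of the 48. The chaperones of the lumen led the list. Hsc70-3 (TC13012), the bee's BiP, stood at 92.7 RPKM in winter, 261 in spring and 244 in retired, a ratio of 2.64 (2.45 to 2.84). Its co-chaperone DnaJ B11 (TC17990) stood at 26.9, 69.2 and 66.2 RPKM, a ratio of 2.46 (1.96 to 3.11). Endoplasmin (TC13847), the Hsp90 of this compartment, stood at 46.7, 129 and 109 RPKM, a ratio of 2.33 (2.11 to 2.58). Calreticulin, a chaperone that binds sugar chains, was 1.78-fold higher (1.66 to 1.92). Not all members went this way. Calnexin (TC12564), the membrane-bound partner of calreticulin, stood at 72.7 and 71.9 RPKM, and protein O-mannosyltransferase 1 (TC15846) at 31.1 and 18.2 RPKM.

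Later steps of secretion showed smaller differences. Among 90 Golgi and vesicle sequences, 2 were at least 2-fold higher and 1 lower, and the median was -0.06, or 0.21 above that of all sequences. Rab-27A (TC13256), a small GTPase of secretory granule release, stood at 32.3 RPKM in winter, 114 in spring and 84.2 in retired, a ratio of 2.61 (2.17 to 3.15). A coatomer beta' sequence (TC16066), part of the coat of Golgi vesicles, was 2.16-fold higher (1.55 to 3.02).

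**Figure D4:**
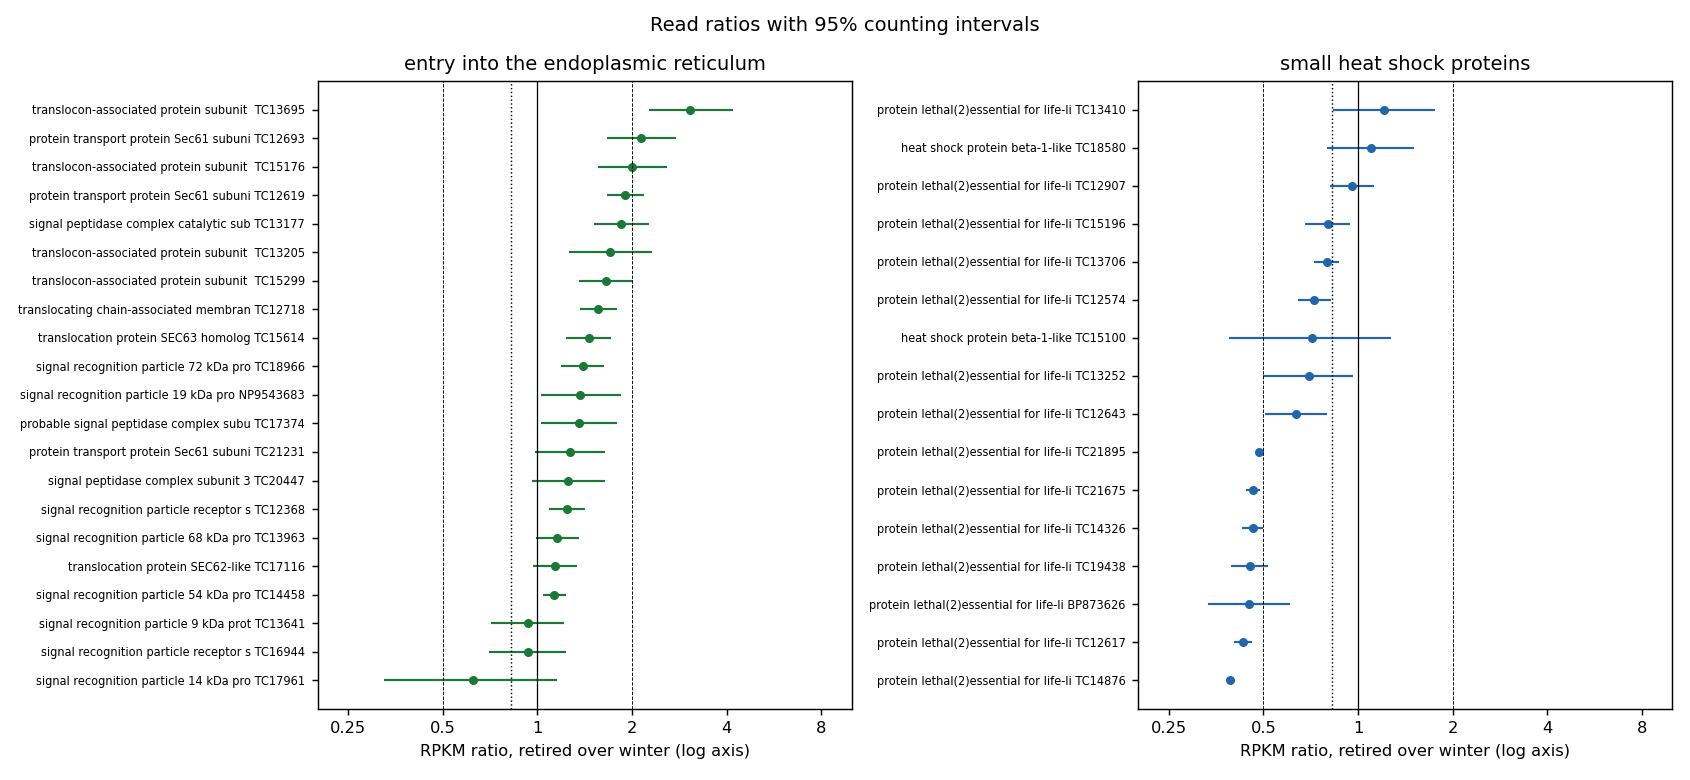
Retired over winter RPKM ratio (log axis) of each sequence for entry into the endoplasmic reticulum (left, 21) and small heat shock proteins (right, 16), with bars for the 95% counting interval. Solid, dashed and dotted lines mark equal values, 2-fold and the median of all sequences, and 14 of the left but 0 of the right intervals lie wholly above 1.

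Protein synthesis was split between its parts. Cytosolic ribosomal proteins were lower, with 51 of 75 intervals below 1 and 3 above, and a median of -0.39, which lies 0.12 below that of all sequences. That median was -0.11 with all ratios rescaled to a median of 1. Only 2 of the 75 were 2-fold lower, namely 40S S3a (BP875096), with 42 winter and 10 retired reads, and 40S S5 (TC15598), with 75 and 28. As a list they took 2.10% of winter, 1.90% of spring and 1.61% of retired reads. Among 46 translation factors, 17 intervals lay above 1 and 6 below, around a median of 0.20. Initiation factor 5A (TC19210) stood at 289, 496 and 471 RPKM, a ratio of 1.63 (1.51 to 1.76), and elongation factor 1-beta (TC13246) was 1.61-fold higher (1.38 to 1.89). Elongation factor 2 (TC17681), the most abundant of the 46, went the other way, at 1018, 790 and 714 RPKM, a ratio of 0.702 (0.682 to 0.722). The aminoacyl-tRNA synthetases, enzymes that charge transfer RNA, had 9 of 32 intervals above 1, 3 below and a median of 0.12. Seryl-tRNA synthetase (TC15177) stood at 10.4, 27.5 and 20.2 RPKM, 1.94-fold higher (1.48 to 2.56), and alanyl-tRNA synthetase (TC15917) was 1.90-fold higher (1.66 to 2.18). None of the 32 passed 2-fold in either direction, against 1.49% and 6.67% of all sequences.

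The secreted proteins of the gland were the most abundant of the higher sequences. Royal jelly protein sequences had 14 of 39 at least 2-fold higher and 1 lower, and their share of all reads was 7.15% in winter, 21.3% in spring and 18.4% in retired. The members differed among themselves. Mrjp5 (TC12344) stood at 2086, 4476 and 10017 RPKM, a ratio of 4.80 (4.72 to 4.89), and Mrjp2 (TC24109) at 11712, 58884 and 46801, a ratio of 3.996 (3.96 to 4.03). Mrjp1 (TC22404) was 1.95-fold higher (1.93 to 1.97), with reads over a fraction of only 0.1845 of its length in winter and 0.1882 in retired. A second Mrjp1 sequence (BP539812) stood at 16152, 39551 and 22271 RPKM, a ratio of 1.38 (1.36 to 1.40). The relative yellow-f (TC12395) stood at 336.4 RPKM in winter and 237 in retired. Reads of near-identical family members that mapped more than once are not in the counts. Enzymes that convert nectar sugars were all above 1, with 7 of 8 intervals above it. Alpha-glucosidase Hbg3 (TC20807) stood at 7019, 875 and 13882 RPKM, 1.98-fold higher (1.96 to 1.997), and alpha-amylase (TC12373) at 661, 24.2 and 1025. Hbg3 and alpha-amylase were lowest in spring, where Mrjp1 and Mrjp2 were highest.

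Antimicrobial peptides are secreted defence molecules, and the bee's defensin-1 also reaches royal jelly and honey. Defensin-1 (TC23147) stood at 4289 RPKM in winter, 2284 in spring and 5889 in retired, a ratio of 1.37 (1.34 to 1.41). Abaecin (TC23893) stood at 52.8, 18.7 and 84.2 RPKM, a ratio of 1.59 (1.17 to 2.18). Hymenoptaecin (TC12701) rested on few reads, with 8, 45 and 39, a ratio of 5.90 (2.72 to 14.6). The 2 lysozyme c-1 sequences had intervals that include 1. Of 14 immune recognition and signalling sequences, 1 was 2-fold higher, IRP30 (TC15743), with 18, 19 and 45 reads and a ratio of 3.03 (1.72 to 5.56). The list's median of -0.19 lay 0.08 above that of all sequences.

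Among lysosomal genes a small set of hydrolases was far higher in the retired library while the rest were not. Of 68 sequences, 7 (10.3%, against 1.49% of all) were at least 2-fold higher and 2 (2.94%, against 6.67%) lower. The list's median was -0.14, or 0.14 above that of all sequences. The 7 came from 3 kinds of enzyme. A glucosylceramidase-like sequence (TC18376), named for an enzyme that splits glucose from membrane lipid, stood at 11.9, 129 and 76.8 RPKM, a ratio of 6.45 (5.12 to 8.20). Its reads covered a fraction of only 0.0859 of its length in winter and 0.088 in retired. The most abundant glucosylceramidase-like sequence (TC12483) stood at 708, 749.7 and 1346 RPKM, a ratio of 1.90 (1.84 to 1.97), under the 2-fold limit. Lysosomal alpha-mannosidase sequences (TC13073, DB753489) had 592, 2344 and 1595 reads and 7, 55 and 43 reads. The other kind resembled Acph-1, an acid phosphatase known as a venom allergen. Of these, TC15604 stood at 52.7, 532 and 333 RPKM, a ratio of 6.32 (5.49 to 7.30), while TC14476 had 64 winter, 4 spring and 265 retired reads, a ratio of 5.02 (3.80 to 6.70). The phosphatases thus included a sequence that was lowest in winter and another that was lowest in spring. Phospholipase B-like lamina ancestor (TC13792) was among the lower members, at 423, 144 and 161 RPKM, 2.63-fold lower (2.46 to 2.81). The proton pump subunit D (TC13553) stood at 221 RPKM in winter, 251 in spring and 259 in retired, a ratio of 1.17 (1.05 to 1.31).

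Enzymes that build, lengthen and reduce fatty acids differed by member. Of 24 sequences, 4 (16.7%, against 1.49% of all) were at least 2-fold higher and 0 (against 6.67%) lower. Intervals lay above 1 for 11, below 1 for 4 and included 1 for 9, at a median of 0.19. Fatty acyl-CoA reductase FAR1 (TC14245), which turns fatty acids into alcohols, stood at 85.9 RPKM in winter, 36.4 in spring and 181 in retired, a ratio of 2.11 (1.94 to 2.30). Elongases of very long chain fatty acids stood at 4.03, 2.75 and 14.8 RPKM (TC14076), a ratio of 3.67 (2.50 to 5.50), and at 47.0, 45.4 and 94.4 RPKM (TC17604), a ratio of 2.01 (1.57 to 2.59). The enoyl-CoA reductase (TC13028) that completes a round of elongation was 1.91-fold higher (1.62 to 2.24). Fatty acid synthase-like (TC14567), which builds the chains, had an interval below 1. Sequences for lipases and fatty acid breakdown gave 3 of 47 at least 2-fold higher and 1 lower, with 7 intervals above 1, 8 below and a median of -0.11. ABCD2 (TC16356), a carrier of very long chain fatty acids into peroxisomes, stood at 73.6, 82.9 and 156 RPKM, a ratio of 2.13 (1.95 to 2.32). A pancreatic-type lipase (TC16189) had 16, 5 and 90 reads, a ratio of 6.81 (3.98 to 12.4). Hormone-sensitive lipase-like (TC14592), which frees fatty acids from stored fat, had a ratio of 0.772 (0.612 to 0.972), and lipase member H-A-like (NP9553807) of 0.753 (0.582 to 0.970). In log2 these 2 ratios lay only 0.098 and 0.134 below the median of all sequences. For FAR1, the first elongase and the pancreatic-type lipase, the spring library was the lowest of the 3.

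Detoxification families split by member. Of 20 cytochrome P450 sequences, oxidases of hormones, fats and foreign chemicals, 3 were at least 2-fold higher and 0 lower, but 6 intervals lay below 1 and the median was -0.16. P450 6a14 (TC14206) stood at 5.24 RPKM in winter, 17.4 in spring and 45.2 in retired, a ratio of 8.63 (6.64 to 11.4), and 6a13 (TC14444) at 2.06, 8.27 and 14.6, a ratio of 7.09 (4.44 to 11.9). Cyp4g11 (TC12371), whose relatives make cuticle hydrocarbons in Drosophila, was 2.14-fold higher (1.45 to 3.19). In contrast, a P450 9e2 sequence (BI516203) stood at 65.4, 52.2 and 41.5 RPKM, 1.58-fold lower (1.16 to 2.16). Of the other 9e2 sequences, TC12628, TC13050 and TC16406 also had intervals below 1. TC15055 had a ratio of 0.957 (0.813 to 1.13), and TC18439 was higher, with a ratio of 1.54 (1.09 to 2.17). Some P450 6a14 sequences other than TC14206 had ratios under 1. A list of glucosyltransferases, glutathione transferases, carboxylesterases and multidrug resistance transporters gave 6 of 39 (15.4%, against 1.49% of all) at least 2-fold higher. In this list, 3 (7.69%, against 6.67% of all) were lower by as much. Of its intervals, 8 (20.5%, against 5.65% of all) lay above 1 and 16 (41.0%, against 33.8%) below. Esterase A2 (TC14641) stood at 9.64, 19.7 and 67.1 RPKM, a ratio of 6.96 (5.37 to 9.15). An ABC transporter of the multidrug resistance family (TC15224) stood at 4.36, 5.91 and 14.4 RPKM, a ratio of 3.30 (2.49 to 4.41).

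**Figure D5:**
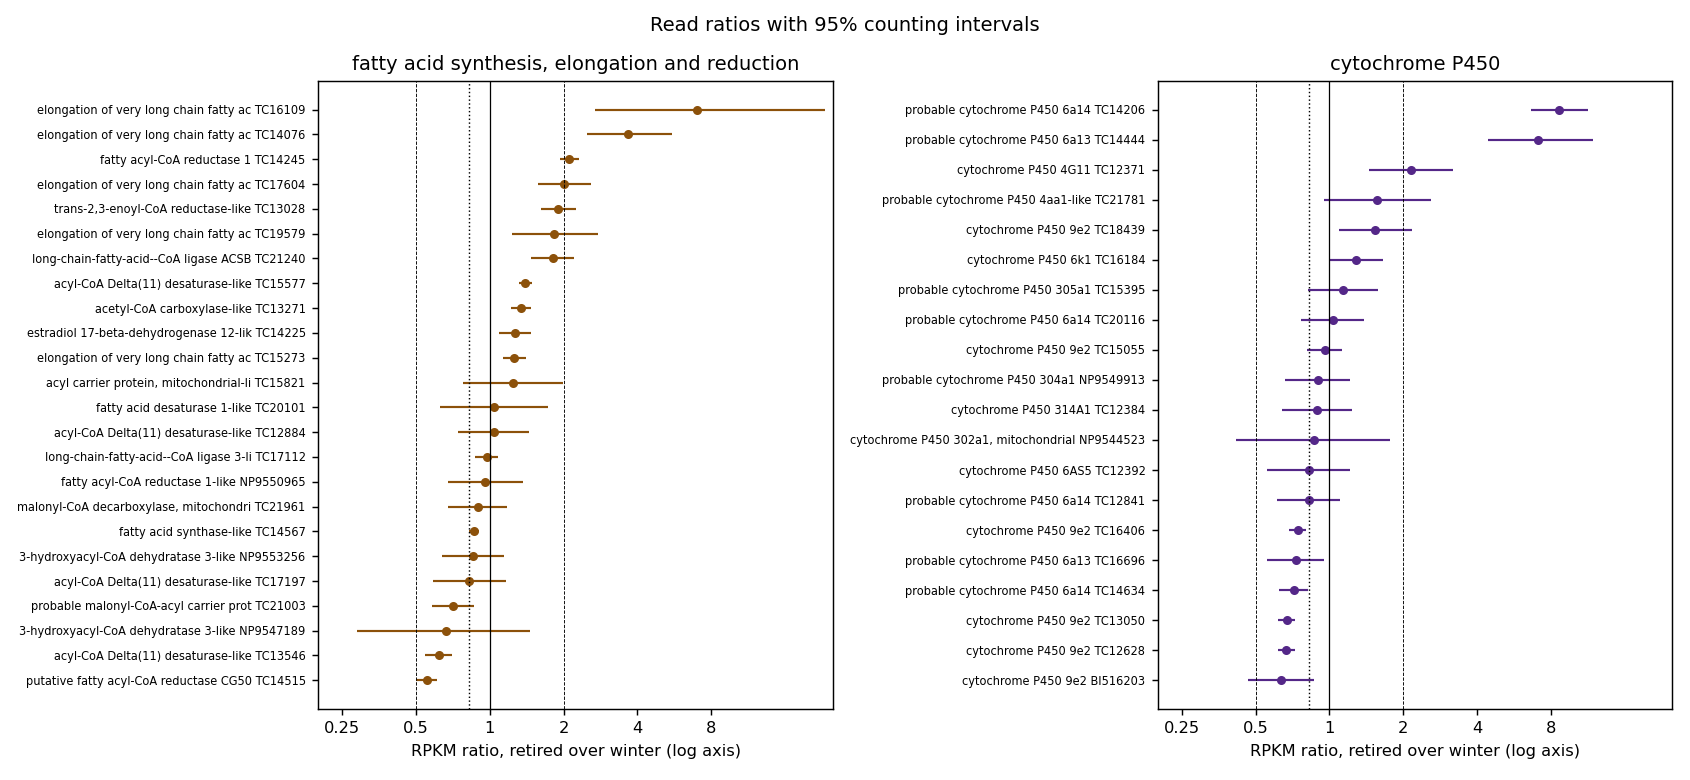
Retired over winter RPKM ratio (log axis) of each sequence for fatty acid synthesis, elongation and reduction (left, 24) and cytochrome P450 (right, 20), with 95% counting intervals and the same lines at equal values, 2-fold and the median of all sequences. The left list has 4 and the right 3 sequences at 2-fold or more, and the P450 sequences below them spread on both sides of the dotted line.

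In amino acid metabolism 3 of 44 sequences were at least 2-fold higher and 0 lower, at a median of 0.03. Besides the aminotransferase, these were asparagine synthetase sequences, which make asparagine from aspartate and glutamine. TC18735 stood at 17.1, 214 and 126 RPKM, a ratio of 7.35 (6.05 to 8.99), and TC19078 was 5.67-fold higher (3.66 to 9.11). The pathways that burn sugar were nearly flat. Glycolysis, the tricarboxylic acid cycle and the respiratory chain had 0 of 18, 0 of 30 and 0 of 68 sequences past 2-fold in either direction, with medians of -0.11, 0.00 and 0.08. Relative to all sequences these medians lay 0.16, 0.28 and 0.35 higher. Glycolysis turned from below to above 0 when ratios were rescaled to a median of 1, at 0.17. Citrate synthase (TC13091), which opens the cycle, stood at 70.1, 103 and 98.5 RPKM, a ratio of 1.40 (1.23 to 1.61). A glycogen phosphorylase sequence (TC19393) was 2.27-fold higher (1.57 to 3.30), but the reads of all 5 sequences with that match gave a ratio of 1.02 (0.960 to 1.09).

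Stores and carriers of the blood stood apart in direction. Vitellogenin (TC12290, Vg) stood at 51.8 RPKM in winter, 9.69 in spring and 9.39 in retired, 5.52-fold lower (4.68 to 6.56). Hexamerin (TC12320), a larval-type storage protein, stood at 21.2, 10.8 and 3.98 RPKM, 5.33-fold lower (3.68 to 7.94). Transferrin 1 (TC12326), an iron carrier, stood at 1125, 597 and 693 RPKM in the 3 libraries. Apolipophorin-III-like A4 (TC13121), which coats lipid particles, went the other way, at 10.3, 24.0 and 41.5 RPKM, a ratio of 4.04 (3.01 to 5.51). Of the 13 sequences of this list, 2 were at least 2-fold lower and 1 higher. All 3 are also fat body markers, and the 6 of 13 matched sequences of that list past 10 RPKM took 0.221%, 0.184% and 0.162% of reads. The part that adhering fat body has in these values was not tested. Blood cell markers were lower as well, with 5 of 8 intervals (62.5%, against 33.8% of all sequences) below 1 and 0 above, at a median of -0.54. Hemocytin (TC15331), a clotting protein, was 2.35-fold lower (1.998 to 2.77), as was phenoloxidase (TC12322), the melanin enzyme, at 28.2, 12.002 and 12.04 RPKM (2.35-fold, 1.85 to 2.999).

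Nutrient signalling genes held a few clearly lower members within a list close to the background. Of 28 insulin and TOR sequences, 3 (10.7%) were at least 2-fold lower, against 6.67% of all sequences, and 0 higher. Intervals lay below 1 for 15 (53.6%, against 33.8% of all), included 1 for 13 and lay above it for 0. The median of -0.34 lay 0.07 below that of all sequences. The insulin-like receptor InR-2 (NP9551823) stood at 12.5, 6.51 and 3.68 RPKM, 3.41-fold lower (2.28 to 5.27). Sestrin (NP9551281), a stress-induced brake on TOR, stood at 191, 69.3 and 90.2 RPKM, 2.12-fold lower (1.89 to 2.39). Rheb (TC21044), which activates TOR, was 2.11-fold lower (1.49 to 3.02), and FoxO (TC20293), the transcription factor that insulin signalling restrains, 1.92-fold lower (1.41 to 2.64). These lower members include some that drive and some that restrain the pathway. Among hormone-related genes other than takeout, the ecdysone-response factors FTZ-F1 beta (NP9550234) and Broad-complex (TC12381) were 1.77-fold (1.55 to 2.01) and 1.51-fold lower (1.17 to 1.96). Juvenile hormone epoxide hydrolase (TC14333), which breaks that hormone down, stood at 33.8 RPKM in winter and 33.4 in retired, a ratio of 0.989 (0.830 to 1.18).

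Small heat shock proteins, chaperones that hold unfolding proteins, were the clearest lower group among stress genes. Of 16 sequences, 7 (43.8%) were at least 2-fold lower and 0 higher, 12 intervals lay below 1, and the median was -0.59, or 0.31 below that of all sequences. The list took 2.05% of winter, 1.23% of spring and 0.936% of retired reads. Most are sequences like Drosophila lethal(2)essential for life. TC14876 stood at 4694, 2850 and 1834 RPKM, 2.56-fold lower (2.50 to 2.62), and TC21895 at 5091, 3085 and 2456, 2.07-fold lower (2.03 to 2.11). Many of them share a best match, so they are not separate genes for certain, and the 16 sequences match 11 proteins. Of the 7 that were 2-fold lower, 6 have the same match, with 72184 winter and 26415 retired reads together. Across the 11 alternatives of processing, the list's median relative to that of all sequences ran from -0.82 to -0.089. The large chaperones did not move with them. Of these 22 sequences 0 passed 2-fold in either direction, and 5 intervals lay above 1 and 5 below. The median was 0.15, or 0.42 above that of all sequences, and 19 of the 22 lay above the median of all sequences. Hsp70Ab-like (TC16246) and Hsp83-like (TC14448) were among the lower members, at 74.3 and 54.8 RPKM and at 36.2 and 27.6 RPKM. Antioxidant enzymes gave 1 of 16 higher and 1 lower (6.25% each, against 1.49% and 6.67% of all sequences). Intervals lay below 1 for 7 (43.8%, against 33.8%), and the list's median lay 0.02 above that of all sequences. Peroxiredoxin Tpx-4 (TC12563), which removes peroxides, stood at 509.6, 236 and 256 RPKM, 1.99-fold lower (1.85 to 2.16), and MsrA (TC12397), which repairs oxidised methionine, was 2.06-fold higher (1.59 to 2.66).

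Protein breakdown differed by step. Proteasome subunits had 0 of 32 past 2-fold, 4 intervals above 1 and 0 below, and a median of 0.12. Ubiquitin enzymes, which mark proteins for it, had 3 of 112 at least 2-fold lower, 43 intervals below 1 (38.4%, against 33.8% of all sequences) and 5 above, with a median of -0.18. Rescaling to a median ratio of 1 brought that median to 0.11. Cell death genes had 0 of 16 past 2-fold and 6 intervals below 1, or 37.5%, near the 33.8% of all sequences, and caspase-1-like (TC17492), a protease of apoptosis, stood at 25.05, 18.6 and 17.7 RPKM.

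Receptors and ion channels gave 9 of 92 sequences (9.78%, against 6.67% of all) at least 2-fold lower and 0 higher, and 45 intervals below 1 (48.9%, against 33.8%) with 0 above. Their median of -0.40 lay 0.12 below that of all sequences. The calcium release-activated channel protein (NP9545413), which refills calcium stores, had 45, 4 and 6 reads, 6.19-fold lower (2.63 to 17.8). Sequences like PIEZO2, a channel opened by mechanical force, were far more abundant. TC23401 stood at 225 RPKM in winter, 49.8 in spring and 95.2 in retired, 2.36-fold lower (2.21 to 2.53), and TC16707 and NP9547977 were 2.49-fold (2.28 to 2.72) and 2.60-fold lower (2.17 to 3.13). These 3 share a match and may be pieces of a single gene. The phosphate cotransporter-like sequence NP9549518 stood at 40.3, 4.07 and 11.5 RPKM, 3.49-fold lower (2.57 to 4.82). Over all 182 transporters, 5 (2.75%) were at least 2-fold higher and 15 (8.24%) lower, near the 1.49% and 6.67% of all sequences, and the median of -0.23 lay 0.04 above that of all. On the higher side, a monocarboxylate transporter (NP9553933) stood at 4.61, 29.9 and 15.97 RPKM and a vesicular glutamate transporter 2-like sequence (TC17398) at 11.5, 23.0 and 33.8.

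Markers of other head tissues did not move as 1 block. Photoreceptor markers had a median of 0.32, with 2 of 11 at least 2-fold higher, 4 intervals above 1 and 3 below. Long-wavelength rhodopsin Lop1 (TC16465), the green-sensitive pigment, stood at 19.7, 7.64 and 76.0 RPKM, a ratio of 3.85 (3.25 to 4.60). The other long-wavelength opsin, Lop2 (TC23573), stood at 12.2, 8.93 and 7.48 RPKM, a ratio of 0.615 (0.394 to 0.942). Arrestins, which switch off light-activated rhodopsin, stood at 8.22, 4.94 and 22.9 RPKM (TC14219) and at 82.0, 81.9 and 155 RPKM (TC23139). The ultraviolet opsin (TC12399) stood at 33.9 and 31.8 RPKM in winter and retired, and chaoptin-like (NP9549768), an adhesion protein of photoreceptors, at 18.1 and 12.6. Neuron markers had 15 of 31 intervals (48.4%, against 33.8% of all sequences) below 1 and 2 above, at a median of -0.25, close to that of all sequences. Muscle markers had 27 of 31 above the median of all sequences, and the 3 past 2-fold were twitchin-like pieces with at most 21 retired reads. Muscle genes with more reads differed less, such as troponin C type IIIa (TC18427) at 76.4, 44.6 and 140.1 RPKM. Whether the amount of eye or muscle in the pools has a part in these values was not tested.

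Of 10 clock sequences, 1 was 2-fold higher, an F-box protein 21-like sequence (TC20223) with 35, 30 and 84 reads, but a second sequence with that match (TC12662) had 233, 80 and 199, a ratio of 1.03 (0.852 to 1.26). The core members of the clock differed. Cycle (TC18816), a transcription activator, stood at 22.9, 28.3 and 33.7 RPKM, a ratio of 1.47 (1.23 to 1.75), and period (TC12294), its inhibitor, at 15.6, 19.6 and 21.5, a ratio of 1.38 (1.16 to 1.64). Cryptochrome 2 (TC12365, Cry2), another inhibitor, stood at 24.6, 21.7 and 23.7, a ratio of 0.964 (0.759 to 1.22). Of the clock kinases, casein kinase I epsilon (TC20486) had an interval below 1, with a ratio of 0.776 (0.679 to 0.887), and those of the other kinases in the list included 1. Of 16 taste and odour sequences, 1 was at least 2-fold higher and 1 lower (6.25% each, against 1.49% and 6.67% of all sequences). Their intervals lay above 1 for 2 and below 1 for 3. The higher sequence was gustatory receptor 10 (TC16133), which senses amino acids in the bee, at 6.98, 59.5 and 24.8 RPKM, a ratio of 3.55 (2.28 to 5.66). The lower one, odorant binding protein 14 (TC14083), had 25, 6 and 1 reads. Chemosensory protein 1 (TC15471), the most abundant of the 16, stood at 2252, 308 and 1660 RPKM, a ratio of 0.737 (0.705 to 0.771).

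Lists of growth and structure lay mostly near the background, in which 6.67% of sequences were at least 2-fold lower and 33.8% of intervals lay below 1. Cell cycle and replication sequences had 6 of 54 (11.1%) at least 2-fold lower and 0 higher, with 20 intervals (37.0%) below 1 and 0 above, at a median of -0.40. DNA polymerase epsilon subunit 2 (NP9550952) stood at 15.2, 10.2 and 6.69 RPKM, 2.28-fold lower (1.47 to 3.61). Chromatin genes had 2 of 71 (2.82%) at least 2-fold lower, 27 intervals (38.03%) below 1 and 1 above, with a median of -0.31, or 0.03 below that of all. In the extracellular matrix, 4 of 28 (14.3%) were at least 2-fold lower and 0 higher, among them collagen IV (TC17301), the mesh of basement membranes, at 25.1, 12.98 and 9.98 RPKM, 2.52-fold lower (2.13 to 2.99). The cytoskeleton had 1 of 84 higher and 1 lower, at a median of -0.27, equal to that of all sequences to 2 decimals. Splicing and RNA processing had 2 of 84 higher and 3 lower.

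Other sequences among the lowest ratios belonged to none of these groups. Nuclear protein 1-like (TC12630), a stress-induced chromatin protein in mammals, stood at 236, 91.3 and 66.5 RPKM, 3.55-fold lower (3.04 to 4.17). VAT-1-like (TC13152), a synaptic vesicle membrane protein in rays, stood at 269, 89.3 and 89.3 RPKM, 3.01-fold lower (2.75 to 3.30). A heparan sulfate sulfotransferase (NP9553587) had 48, 18 and 9 reads, 4.40-fold lower (2.14 to 10.2). Headcase (NP9547366), a regulator of imaginal cells in Drosophila, stood at 63.6, 29.8 and 21.9 RPKM, 2.90-fold lower (1.9998 to 4.30).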

How the data were processed

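Messenger RNA was selected with oligo(dT) beads, fragmented, made into PCR-amplified libraries and sequenced on an Illumina HiSeq 2000, per the labels' protocols. The aligner, counting tool and sequence release were not given in the sources used here. The deposited tables give, per the file headers, RPKM, a read count (unique mappings) and the covered fraction of each sequence (coverage). Sequences absent from a table were taken as 0 reads. Gene symbols came from a RefSeq gene table of assembly Amel_HAv3.1, used for names only. A match names what a sequence resembles.

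The sequence identifier joined the tables. The ratio of RPKM was computed as reads per library total, retired over winter, and a library under 3 reads was raised to 3 for the calls and medians. For printed ratios only a library at 0 was raised. A difference of 2-fold was called. Intervals are exact conditional binomial (Clopper-Pearson) at 95% and cover counting error only, since reads without molecular identifiers are not independent molecules. Each group has 1 library, so no test across samples was possible.

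The 50 gene lists were matched by words in the protein match, orthology and process text. The members and lists were chosen with earlier results of these data known, and the lists of extracellular matrix, venom proteins and receptors and ion channels were added after the data were seen. List wording was cleaned after reading match names, and some sequences are in more than 1 list. Named by rule were described sequences with at least 50 reads in both libraries together: the 15 highest and 15 lowest ratios, up to 4 of each list with the largest difference, and the 10 most abundant of each library. Others in the text, such as calnexin, hymenoptaecin, yellow-f, alpha-amylase TC12373, TC16421, TC12326, TC12662, TC14333, TC13073, TC14567, TC12483, TC14592, NP9553807, TC12365, TC20486, ultraviolet opsin, chaoptin-like and the proton pump subunit, were chosen after their values were seen. The calculation was tested on simulated data. Alternatives were 3 pseudocounts, 3 RPKM filters, a read minimum, 2 rescalings, TPM, and reads summed per protein match. Figures were drawn with matplotlib 3.10.9. Tables were handled in Python 3.11.15 by pandas 2.3.3 and numpy 2.4.6, and intervals came from scipy 1.17.1.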

Additional observations from a re-analysis of the deposited data

How the results depend on the processing

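Against 178 sequences at least 2-fold higher and 797 lower, ratios of RPKM + 1 gave 157 and 649, RPKM + 0.1 gave 177 and 786, and RPKM + 5 gave 104 and 301. With a minimum of 1 RPKM the counts were 452 and 1708, with 50 RPKM 67 and 131, and with no filter 464 and 1718. Requiring 50 reads in both libraries together left 114 and 430. Rescaling to a median ratio of 1 gave 365 and 366, rescaling without 80 royal jelly and most abundant sequences 311 and 430, TPM 229 and 760, and sums per protein match 143 and 716. The median log2 ratio of -0.27 stayed between -0.28 and -0.18 except under the rescalings, which set it to 0.011 and -0.056 by construction. Of 50 lists, 33 had a median below 0. The rescalings brought 21 and 16 of these above 0. Across the 11 alternatives, 37 lists kept their side of the median of all sequences. The 2 rescalings shift a list's median and that of all sequences alike, so no list could change side under them. Of 204 named sequences, 3 changed direction under both rescalings, namely Eaat-2 TC12319 (1.07 and 1.02), pyruvate kinase TC13136 (1.05 and 1.003) and COX1 TC21016 (1.13 and 1.08). No paired analysis was possible because each group has 1 library, and for the same reason no library could be left out. Depth limits weak sequences, since 10 RPKM on a sequence of median length was 27.9 winter and 23.0 retired reads.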

Other observations

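Several abundant sequences without a described match were far higher in the retired library. A sequence matching the undescribed LOC552041 (TC13776) stood at 467 RPKM in winter, 1147 in spring and 2172 in retired, a ratio of 4.65 (4.50 to 4.80). A second sequence with that match (TC20120) stood at 449, 878 and 2533 RPKM, a ratio of 5.64 (5.33 to 5.98). Sequences matching LOC100871523 stood at 963, 2481 and 4475 RPKM (TC16693) and at 605, 1583 and 2599 RPKM (BI507134). With no protein match at all, TC24306 stood at 1092, 2342 and 6034 RPKM, a ratio of 5.53 (5.25 to 5.82), and BI509691 at 709, 1593 and 3484. All 6 were highest in the retired library and lowest in the winter library. On the lower side, LOC410363 (TC21694) stood at 319, 55.8 and 96.4 RPKM, 3.31-fold lower (3.15 to 3.47), and the unmatched DB771895 at 244, 227 and 43.6 RPKM, 5.604-fold lower (4.32 to 7.37). DB771895 stood apart from TC21694 in its spring value, which was near that of winter. These sequences were picked for their ratios after the values were seen.

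Among sequences grouped by orthology entry, 3',5'-cyclic-nucleotide phosphodiesterase, which ends cyclic nucleotide signals, had 3 of 10 at least 2-fold lower, 9 intervals below 1 and a median log2 ratio of -0.95. The 10 match 4 proteins. Ankyrin, a link between membrane and cytoskeleton, had 8 of 10 intervals below 1 and a median of -0.44. By process term, metal ion transport had 17 of 31 intervals below 1 and 0 above, with a median of -0.48. Defense response to bacterium had 6 of 15 above and 2 below, with a median of 0.41. Among sequences named for venom proteins, 5 of 11 were at least 2-fold higher, against 1.49% of all sequences, and 0 lower. Of the 5, 3 were the acid phosphatases. Phospholipase A2 (TC13077) stood at 134.6, 119 and 168.8 RPKM. Other members had intervals below 1. Icarapin-like (TC22661), the most abundant of the 11 in the winter and retired libraries, had a ratio of 0.831 (0.784 to 0.882). Its log2 ratio of -0.27 was near the median of all sequences. Venom serine carboxypeptidase (TC18097) had a ratio of 0.577 (0.504 to 0.659).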
